A study of Mus musculus with 4 samples.

Results

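The genes described here are the mouse genes of the major histocompatibility complex (MHC) and of the interferon response, in heart. They were chosen by name alone, as the protein-coding genes of GENCODE release M21 whose names begin with H2-, Ifit, Ifitm, Oasl or Isg, or with Irf, Oas, Gbp or Stat and a digit, together with Mx1. The rule itself uses no measured value, though it was written with earlier results of these data known. It gave 91 genes of 21938 protein-coding genes on chromosomes 1 to 19, X and Y. They lie in 36 loci, counting genes whose surroundings of 50 kb touch as 1 locus. Acetylation of lysine 27 of histone H3 (H3K27ac) was measured by chromatin immunoprecipitation and sequencing, and the values are peaks, the stretches where the authors found the mark enriched. There was 1 group and no second condition: hearts of female B6CASTF1/J mice, the first-generation cross of C57BL/6J and CAST/EiJ, aged 2 months. The group held 2 biological replicates of 2 technical replicates each, 4 libraries in all. Each biological replicate was a pool of 2 heart samples. Both pools carry the same donor identifier, so the spread between them may be technical.

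Interferons bind receptors whose kinases phosphorylate STAT proteins, and a complex of STAT proteins with IRF9 binds a DNA element called the interferon-stimulated response element (ISRE). STAT dimers bind another element, the gamma-activated site (GAS). The induced genes include antiviral effectors (IFIT, IFITM, OAS, GBP, Mx and Isg proteins) and the MHC molecules. Class I molecules present peptides on nearly all nucleated cells, and class II molecules do so mainly on dendritic cells, macrophages and B lymphocytes. H3K27ac marks promoters and enhancers in use.

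The letters behind the ISRE comparison are shown first, for genes with and without acetylated promoters. The core searched was GAAANNGAAA, on both strands, in the 300 bases from 250 before to 50 after the transcription start site (TSS) that lies furthest 5′ in each gene. Each line gives the core in capitals with 10 bases to either side, on the strand that carries it, 5′ to 3′, from GRCm38. The first 10 genes had a promoter peak, which is a peak within 1 kb of a TSS of the gene, and the last 5 had none. These 15 were picked after their values were seen, to show cores on both sides.
H2-T22, chr17:36042914-36042943, plus strand: ttggggattcGAAAGTGAAActaagccaat
H2-T23, chr17:36032806-36032835, plus strand: gtgtctttatGAAAGAGAAAgcagtaggat
Ifit3, chr19:34583397-34583426, minus strand: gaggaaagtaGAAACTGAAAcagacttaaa
Ifit1, chr19:34640775-34640804, minus strand: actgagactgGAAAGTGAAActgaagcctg
Gbp7, chr3:142530273-142530302, minus strand: atggagaactGAAACTGAAActgcacacac
Gbp2, chr3:142620594-142620623, minus strand: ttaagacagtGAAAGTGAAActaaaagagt
Isg15, chr4:156200871-156200900, minus strand: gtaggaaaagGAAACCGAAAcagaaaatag
Oas2, chr5:120749905-120749934, plus strand: aggaacctagGAAATCGAAActcaagtgtg
Ifitm3, chr7:141010723-141010752, minus strand: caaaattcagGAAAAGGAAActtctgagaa
Irf2, chr8:46739494-46739523, plus strand: gtggggaagtGAAAATGAAAttgacttttc
H2-Q2, chr17:35341985-35342014, minus strand: aaagcaacttGAAAAAGAAAgggtttcttt
Ifit1bl1, chr19:34602053-34602082, plus strand: ccaacctacaGAAAATGAAAcctacagagt
Gbp2b, chr3:142594700-142594729, minus strand: tgataaagaaGAAAGTGAAAttagaagtac
Oas3, chr5:120777715-120777744, minus strand: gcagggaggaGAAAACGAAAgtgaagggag
Oas1a, chr5:120907526-120907555, minus strand: cccttctcggGAAATGGAAActgaaaatct

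The core stood in the promoters of 21 of the 91 genes (23.1%), beside 3.55% of all protein-coding genes. Of the 31 cores found, counted for each gene, 25 lay wholly before the TSS and within 200 bases of it. More than 1 core was found at 9 genes. The 21 genes were 5 of the 6 Ifit genes (Ifit3, Ifit3b, Ifit1, Ifit1bl1 and Ifit1bl2), 4 of the 10 Gbp genes (Gbp2, Gbp2b, Gbp3 and Gbp7), 5 of the 11 Oas genes (Oas2, Oas3, Oas1a, Oas1c and Oas1g), Ifitm2, Ifitm3, Isg15, Irf2, and the class I genes H2-Q2, H2-T22 and H2-T23. The stretches printed for Ifit3 and Oas1a also stand letter for letter in the near-identical copies Ifit3b and Oas1g. Those of Ifit1 serve Ifit1bl2 as well, since the TSSs of the pair face away from each other across 1 shared promoter. The cores there are counted for both genes.

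Whole promoters of 3 of the genes are given to show how their letters differ. Gbp3 encodes a guanylate-binding protein, an antimicrobial GTPase, and its promoter (chr3:142559776-142560075, plus strand) holds no CpG and 2 overlapping ISRE cores, in capitals. Oas1a encodes an oligoadenylate synthetase, which senses double-stranded RNA, and its promoter (chr5:120907472-120907771, minus strand) holds a GAS core (TTCNNNGAA) and 2 overlapping ISRE cores. Irf1 encodes a transcription factor that interferon-gamma induces, and its CpG-rich promoter (chr11:53769764-53770063, plus strand) holds a GAS core. Gbp3 and Irf1 had a promoter peak, and Oas1a, which was chosen after its values were seen, had none.
Gbp3: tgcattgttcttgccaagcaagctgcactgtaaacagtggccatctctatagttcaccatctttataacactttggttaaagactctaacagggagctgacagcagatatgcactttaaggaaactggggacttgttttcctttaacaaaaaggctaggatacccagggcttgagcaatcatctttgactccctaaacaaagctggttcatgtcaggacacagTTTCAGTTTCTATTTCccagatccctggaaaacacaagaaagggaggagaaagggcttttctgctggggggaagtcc
Oas1a: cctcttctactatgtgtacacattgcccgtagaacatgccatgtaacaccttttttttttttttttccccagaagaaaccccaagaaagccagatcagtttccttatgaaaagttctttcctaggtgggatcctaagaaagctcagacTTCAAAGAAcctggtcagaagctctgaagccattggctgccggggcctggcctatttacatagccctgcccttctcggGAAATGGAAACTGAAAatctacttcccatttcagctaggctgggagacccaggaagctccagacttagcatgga
Irf1: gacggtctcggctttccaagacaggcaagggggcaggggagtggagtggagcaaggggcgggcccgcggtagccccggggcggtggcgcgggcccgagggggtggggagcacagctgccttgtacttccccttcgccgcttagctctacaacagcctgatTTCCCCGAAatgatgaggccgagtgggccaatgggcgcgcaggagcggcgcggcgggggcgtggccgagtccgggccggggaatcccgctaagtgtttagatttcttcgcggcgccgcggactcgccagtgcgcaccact

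Across all 91 genes, the share with an acetylated promoter was near that of all coding genes, and it varied between gene families. A promoter peak was found at 54 genes (59.3%), beside 56.8% of all protein-coding genes, with a 95% exact (Clopper-Pearson) interval of 48.5% to 69.5% for the 91. The MHC class I and class II genes had one at 11 of 33 (33.3%, interval 18.0% to 51.8%). The other 58 genes had one at 43 (74.1%, interval 61.0% to 84.7%). These intervals cover the counting of genes only, and neighbouring genes are not independent of each other. Counting the 5′-most TSS alone, 53 genes had a peak, beside 53.3% of all coding genes. The exception was H2-Eb1, whose nearest peak lay 3.65 kb from its 5′-most TSS.

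Both biological replicates gave the same picture. The list of biological replicate 1 had a promoter peak at 53 of the 91 genes, beside 55.2% of all coding genes, and the list of biological replicate 2 at 53, beside 57.9%. The same 53 genes were found in both. The 54th gene, Ifitm1, had a peak of 0.295 kb and fold 2.56 in the replicated list only, the lowest promoter fold of the 54. Of the promoter peaks in the list of replicate 1, 76 of 79 overlapped a peak of replicate 2 (96.2%, exact interval 89.3% to 99.2%). In the other direction, 66 of 74 did so (89.2%, interval 79.8% to 95.2%). Peaks were generally wider in the list of replicate 2: at 50 of the 53 genes the widest promoter peak was wider there, with a median of 2.08 kb, against 1.38 kb in the list of replicate 1. Widths in the replicated list differed by over 1.5 times from those of replicate 1 at 15 of the 53 genes and from those of replicate 2 at 14, so the widths given below hold for the replicated list.

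**Figure D1:**
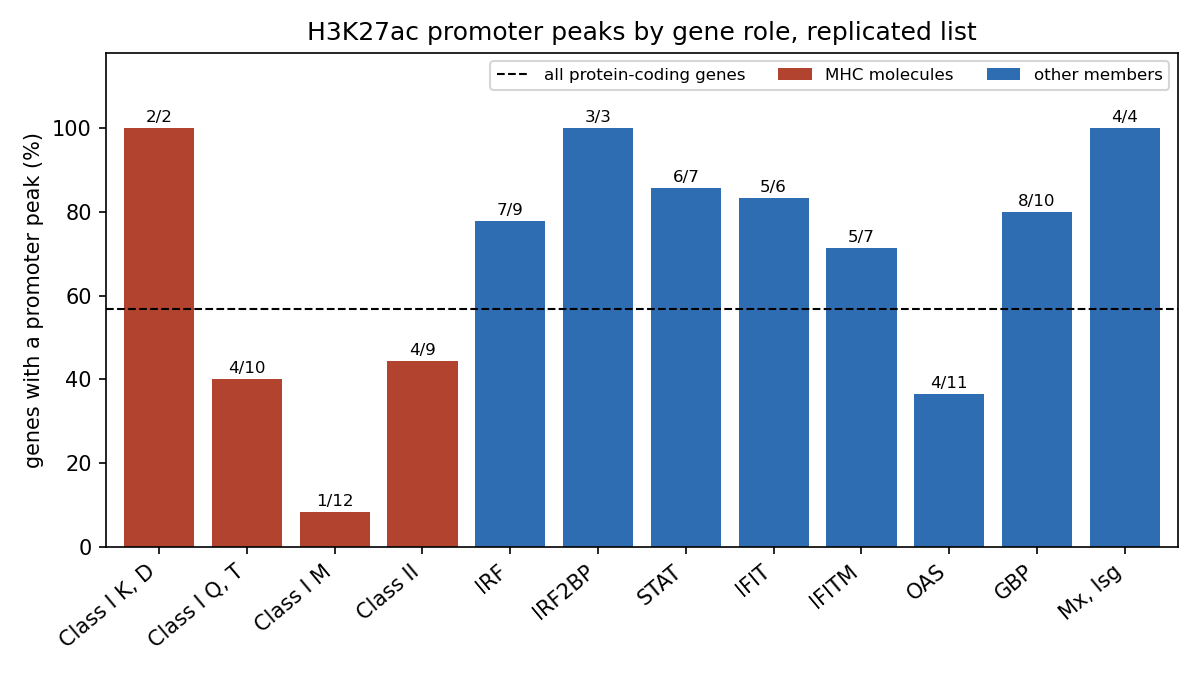
Share of genes with a promoter peak in the replicated list, by role, with the number of genes above each bar. The dashed line marks all protein-coding genes (56.8%), and the MHC roles other than the classical class I pair (2 of 2) stand below it, as do the OAS genes (4 of 11).

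The strength of a peak is given as the fold the authors deposited for it, and folds of different lists are printed side by side only to show each list's own value. The strongest promoter peaks of the 54 genes had a median fold of 11.2 (range 2.56 to 34.6), beside 13.2 for the 12468 coding genes with a promoter peak. Their widest promoter peaks had a median width of 1.62 kb, beside 1.44 kb for those coding genes. Of the 53 genes with a peak at the 5′-most TSS, 42 had that TSS inside a peak (79.2%), beside 77.2% of such coding genes. The summit of the strongest of these peaks lay downstream of the TSS at 37 genes (69.8%), beside 71.5%.

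The STAT genes encode the signal carriers from the receptors to the nucleus, and 6 of 7 had a promoter peak. Stat3, which signals for the interleukin-6 family, had the highest fold of all 91 genes at 34.6 in the replicated list, with 27.9 in the list of replicate 1 and 41.7 in that of replicate 2. Stat6, which signals for interleukin-4, followed at 34.0 in the replicated list, with 30.2 and 38.5 in the single lists. In the single lists the fold at H2-DMa was above those of both, at 31.2 and 50.5. Stat2, which carries the type I interferon signal, had a fold of 10.6 at a peak also within 1 kb of a TSS of Apof. Its other promoter peak had 7.67. The growth hormone and cytokine carriers Stat5a and Stat5b, which lie side by side, had folds of 10.8 and 19.5. That of Stat5b was 11.6 in the list of replicate 1 and 25.8 in that of replicate 2. Stat4, which acts mainly in lymphocytes, had no promoter peak, and its nearest peak to the 5′-most TSS lay 70.8 kb away. The nearest peak to any part of the Stat4 gene lay 5.95 kb away.

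The IRF genes, transcription factors of the interferon system, had a promoter peak at 7 of 9. Irf1 had the strongest, with fold 25.9 over 2.90 kb in the replicated list, 19.6 in the list of replicate 1 and 32.8 in that of replicate 2. Irf2, which competes with Irf1, reached 22.1, and Irf9, the DNA-binding partner of STAT2 in the complex on the ISRE, reached 21.3. Irf3, the latent factor that nucleic acid sensors switch on, reached 20.4 at a promoter it shares with Bcl2l12. Irf7, which drives the second wave of type I interferon, had 13.6 over only 0.630 kb. Irf5 and Irf8, known from myeloid cells, had the weakest, at 6.07 and 7.56. That of Irf8 lay at an internal TSS, and the strongest peak at its 5′-most TSS had 4.38. Irf4, a lymphocyte factor, had none, with the nearest peak 18.8 kb from its 5′-most TSS and 1.04 kb from the gene.

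The 3 genes for IRF2-binding proteins, which are transcriptional corepressors and match the naming rule without being IRFs, included both genes with the longest acetylated stretches, Irf2bpl and Irf2bp2. Acetylated length is the sum of peak bases in a window that reaches 50 kb beyond either end of a gene. It was 40.5 kb at Irf2bpl, 34.0 kb at Irf2bp2 and 10.1 kb at Irf2bp1, with promoter folds of 31.4, 30.2 and 20.3. A single promoter peak of Irf2bp2 spanned 11.2 kb in the replicated list, with widest peaks of 6.86 kb in the list of replicate 1 and 11.3 kb in that of replicate 2.

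**Figure D2:**
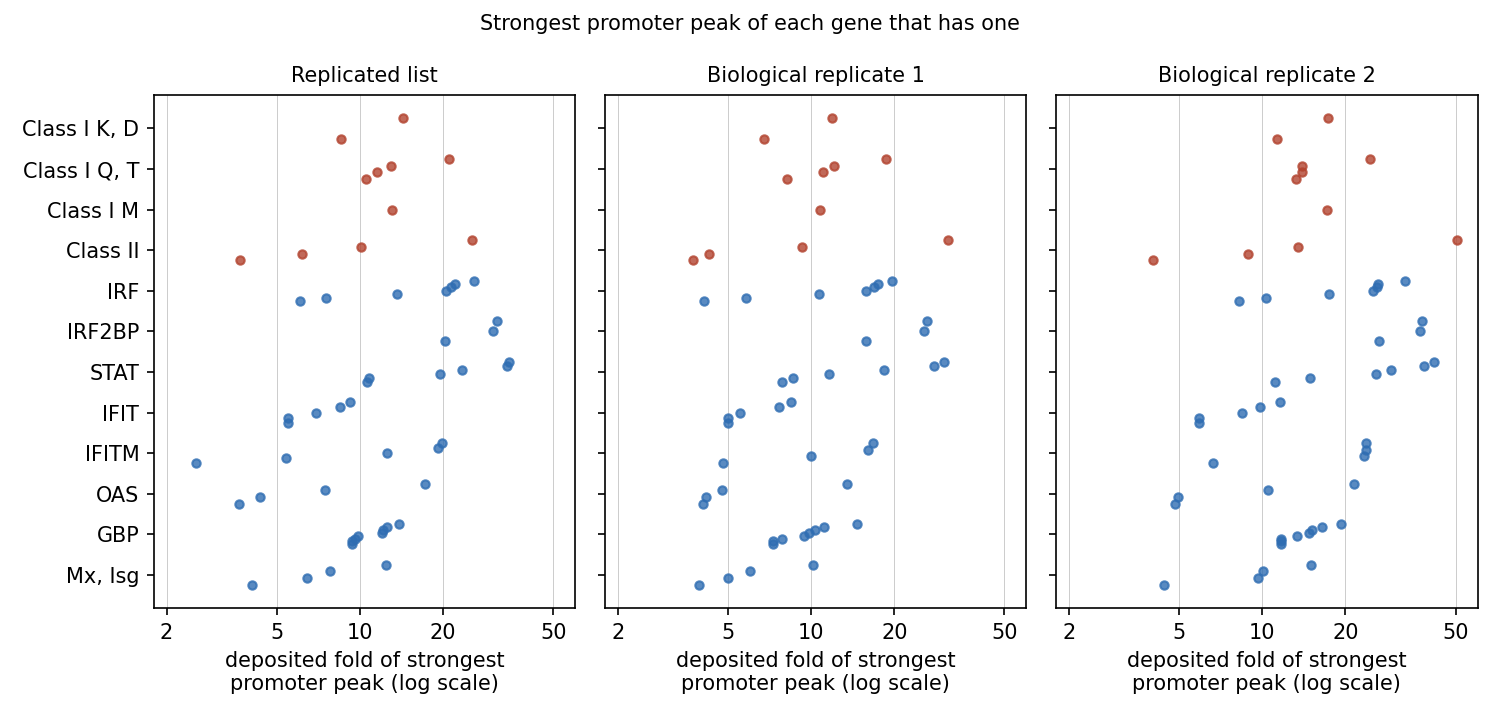
Fold deposited by the authors for the strongest promoter peak of each gene that has one, on a log scale, by role, in the replicated list and in the lists of the single replicates. Each point is 1 gene. In the replicated list, STAT and IRF2-binding protein genes reach the highest values. IFIT and OAS genes lie mostly below 10 there, with Oasl2 at 17.2. In the lists of replicates 1 and 2 the highest point is the class II gene H2-DMa, at 31.2 and 50.5. Folds are not compared between panels.

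The IFIT genes, whose products bind viral RNA, lie in 1 cluster on chromosome 19, and 5 of 6 had a promoter peak, all of moderate strength. Ifit3b had a fold of 9.23, with 8.44 and 11.6 in the lists of replicates 1 and 2. Ifit2 had 8.49, Ifit3 had 6.92, and Ifit1 and Ifit1bl2 shared 1 peak of 1.25 kb with 5.49. Ifit1bl1, between Ifit3 and Ifit3b, had none within 4.83 kb. The promoters of Ifit3 and Ifit3b are so alike that only 37.1% and 36.4% of their sequences of 32 bases, within 1 kb of the TSS, occur once in the genome. Peaks at these copies cannot be assigned to 1 copy with certainty, since how reads that match several places were handled is not given in the sources used here.

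Of the IFITM genes, membrane proteins that block virus entry, 5 of 7 had a promoter peak. Ifitm3 had a peak of 3.18 kb with fold 19.8, and 16.7 and 23.4 in the lists of replicates 1 and 2. Ifitm2 had one of 4.60 kb with fold 19.1 and shared it with the predicted gene Gm45717. Ifitm5, known from bone, stood beside Ifitm2. Its stronger promoter peak had a fold of 12.5 and a summit 1.21 kb upstream of its TSS, and its other promoter peak had 2.83. In the list of replicate 1 its fold was 9.96. In the list of replicate 2, Ifitm2 and Ifitm5 had the same fold of 23.8 and the same width of 11.3 kb, so that this value is 1 measurement. Ifitm10, which lies apart from the cluster, had 5.40. Ifitm6 had no promoter peak although 10.5 kb within 50 kb was acetylated, and Ifitm7, alone on chromosome 16, had no peak within 77.7 kb.

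The GBP genes form a cluster on chromosome 3 and another on chromosome 5, and 8 of 10 had a promoter peak, with folds in a narrow range of 9.38 to 13.8. On chromosome 3, Gbp5 had 13.8 over 3.70 kb, Gbp2 had 12.5, Gbp7 had 12.1 and Gbp3 had 9.87. In the lists of replicates 1 and 2, Gbp3 had 14.6 and 13.4, and Gbp2 had 10.3 and 19.2. Gbp2b had none at its TSS. On chromosome 5, Gbp6 had 12.0, at a peak also within 1 kb of a TSS of the coding gene Gm43302. Gbp8, Gbp9 and Gbp4 share their 5′ ends and the same peaks there, so that their fold of 9.38 is 1 measurement. Gbp9 had a further peak of fold 9.57 at an internal TSS. Gbp10 had no peak within 53.0 kb, and 55.4% of its promoter sequences of 32 bases were unique.

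The OAS genes had promoter peaks at 4 of 11. Oasl2 had the strongest, with a fold of 17.2 over 2.09 kb, and 13.5 and 21.5 in the lists of replicates 1 and 2. Oas1c had 7.45 (4.75 and 10.5 in the single lists), from the stronger of its peaks, whose summits lie on either side of the TSS, Oasl1 had 4.35 and Oas2 had 3.66. Oas3 and the other 6 Oas1 genes (Oas1a, Oas1d, Oas1e, Oas1f, Oas1g and Oas1h) had none. Oas1g, Oas1a and Oas1d had no peak within 50 kb, the nearest lying 63.0, 83.1 and 101.0 kb away.

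The remaining effectors all had promoter peaks. Isg15, a ubiquitin-like protein, had a peak of 1.08 kb and fold 7.80, with 6.01 and 10.1 in the lists of replicates 1 and 2. The exonuclease Isg20 had 6.45 and its relative Isg20l2 had 12.4, at a promoter shared with Rrnad1. Mx1, a GTPase that blocks influenza viruses, had the weakest, with 4.08 over 0.410 kb at an internal TSS and 3.51 at the 5′-most one, and the acetylated length around it was 0.697 kb.

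**Figure D3:**
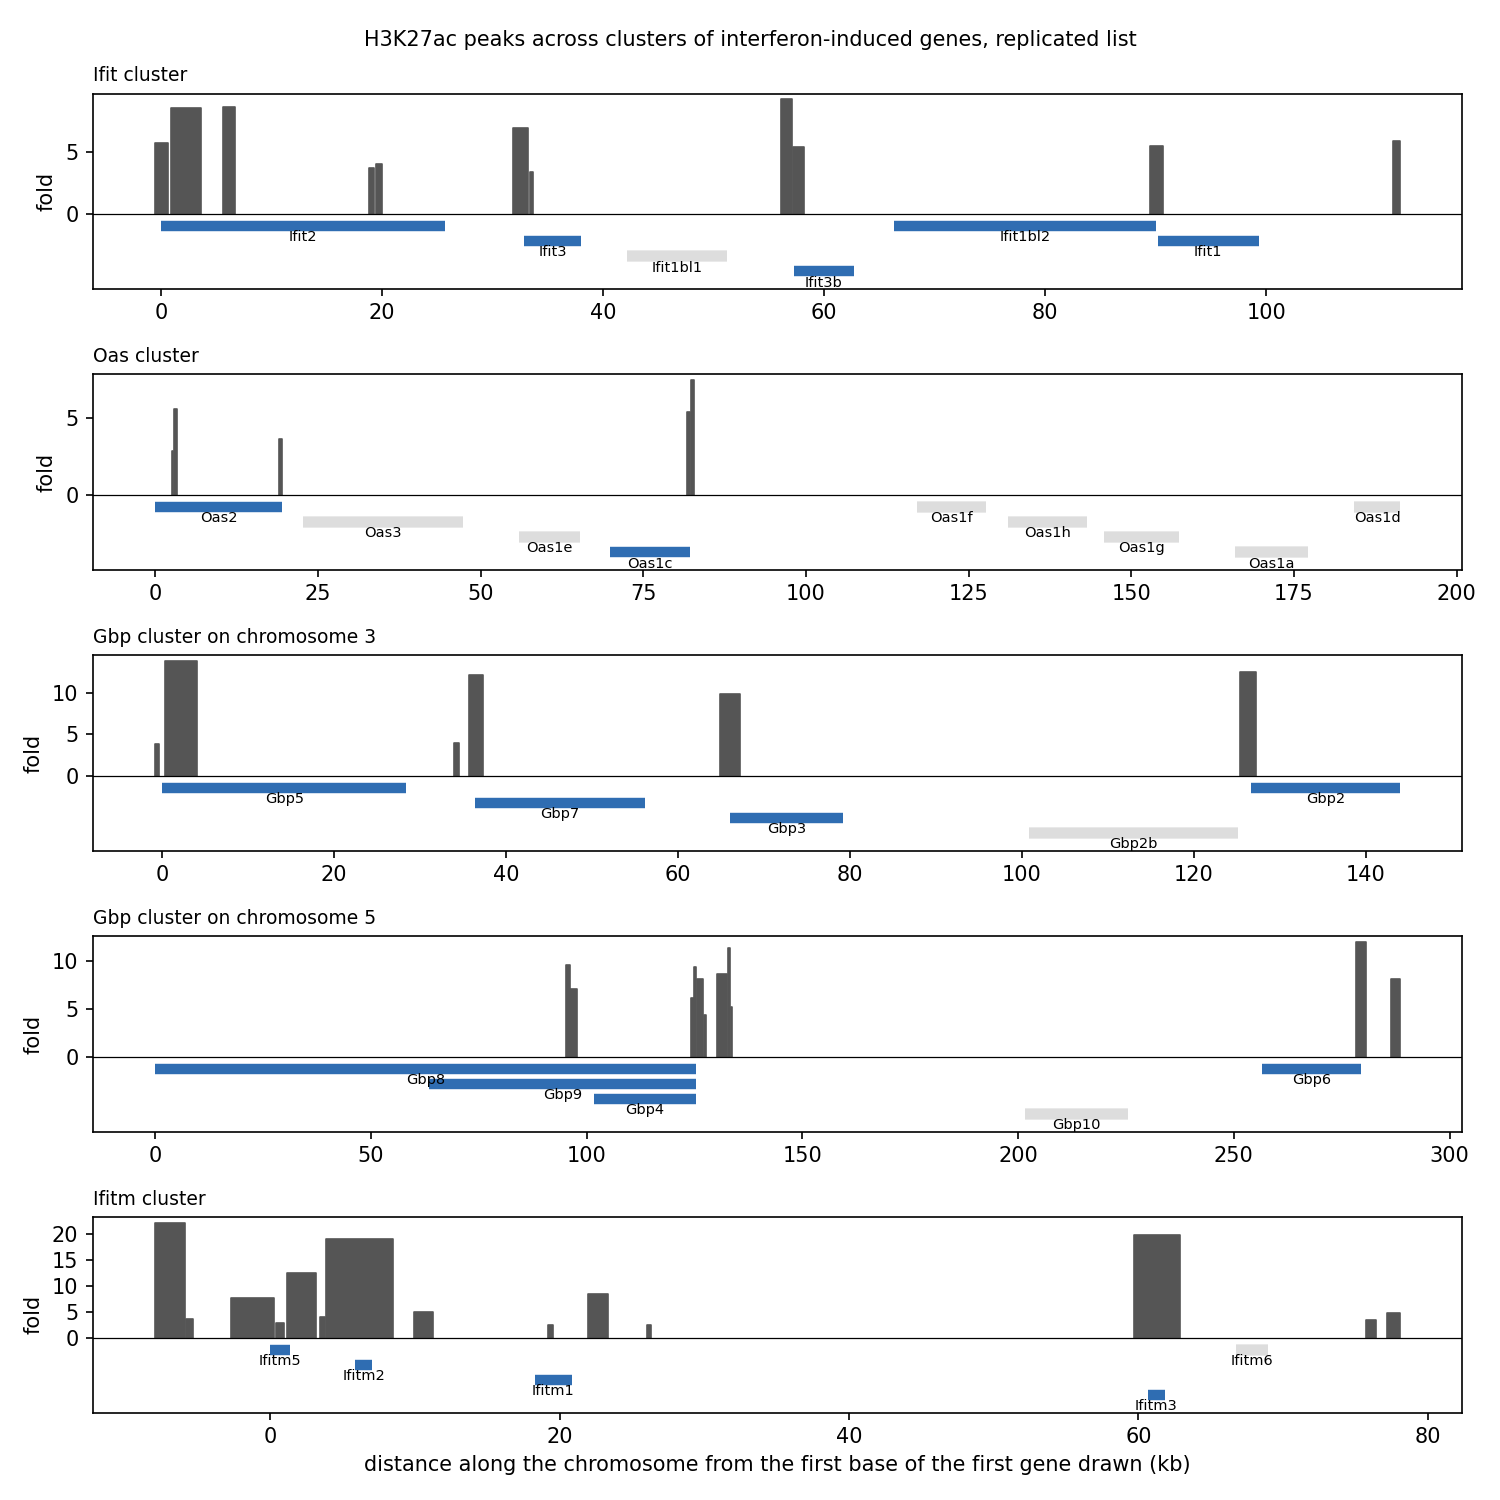
Peaks of the replicated list across the gene clusters, as boxes whose width is the peak and whose height is the deposited fold, with genes below in blue where they have a promoter peak and in grey where they have none. The x axis is the distance in kb from the first gene drawn, and the fold axis differs between panels. Each acetylated Gbp gene on chromosome 3 has a peak at its start, and the right part of the Oas cluster has no peak.

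Among the MHC genes of class I, both classical genes were acetylated. H2-D1 had a peak of 1.97 kb (chr17:35261969-35263942, over exonic sequence) with fold 14.3, and 11.9 and 17.3 in the lists of replicates 1 and 2. H2-K1 had one of 1.12 kb (chr17:33999735-34000857) with fold 8.52, and 6.76 and 11.3 in the single lists. Of their promoter sequences of 32 bases, 86.4% and 71.0% were unique.

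Of the 10 Q and T genes, 4 had a promoter peak. H2-T24 had the widest and strongest, with 4.01 kb and fold 20.9, and its widest peak was 3.85 kb in the list of replicate 1 and 8.10 kb in that of replicate 2. H2-T23, which encodes Qa-1, a ligand of an inhibitory receptor of natural killer cells, had 12.9. H2-T22, whose product is recognised by gamma-delta T cells, had 11.5. Each of its promoter peaks was also within 1 kb of a TSS of the predicted gene Gm6034. Only 58.0% of its promoter sequences of 32 bases were unique, and 39.6% of those of H2-T23. H2-Q4 had a peak of fold 10.5. H2-Q1, H2-Q2, H2-Q6, H2-Q7, H2-Q10 and H2-T3 had none. Of the promoter sequences of 32 bases, 29.9% were unique at H2-Q6, 32.7% at H2-Q7 and 93.2% at H2-Q10, which encodes a class I protein secreted by the liver. The part of this in the missing peaks was not tested.

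Of the 12 M genes, only H2-M3, which presents formylated bacterial peptides, had a promoter peak, with fold 13.1 over 1.39 kb and 10.8 and 17.1 in the lists of replicates 1 and 2. The 6 H2-M10 genes, H2-M1, H2-M2, H2-M5, H2-M9 and H2-M11 had none. Several of these, the H2-M10 genes among them, are known from sensory neurons of the vomeronasal organ. There was no peak at all within 50 kb of 8 of the 12. The median share of unique promoter sequences in the M genes was 92.8%.

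Class II had promoter peaks at 4 of 9 genes, none of them at the genes for the surface molecule H2-A. The nearest peak lay 8.72 kb from H2-Aa and 17.2 kb from H2-Ab1. H2-Eb1, the beta chain of the surface molecule H2-E, had an internal peak of 0.630 kb with fold 6.16. H2-Ob, a subunit of the H2-O molecule that holds H2-DM in check, had 10.1. H2-DMb2, of the peptide exchange factor H2-DM, had only 3.70 over 0.343 kb. The fold of 25.5 at H2-DMa (31.2 and 50.5 in the lists of replicates 1 and 2) belongs to a peak that is also within 1 kb of a TSS of Brd2, a bromodomain protein gene, and cannot be given to either. H2-Oa, H2-DMb1 and H2-Eb2 had none. H2-Ke6, which encodes a steroid dehydrogenase and not an MHC molecule, had 9.55, with 8.16 and 14.6 in the single lists.

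**Figure D4:**
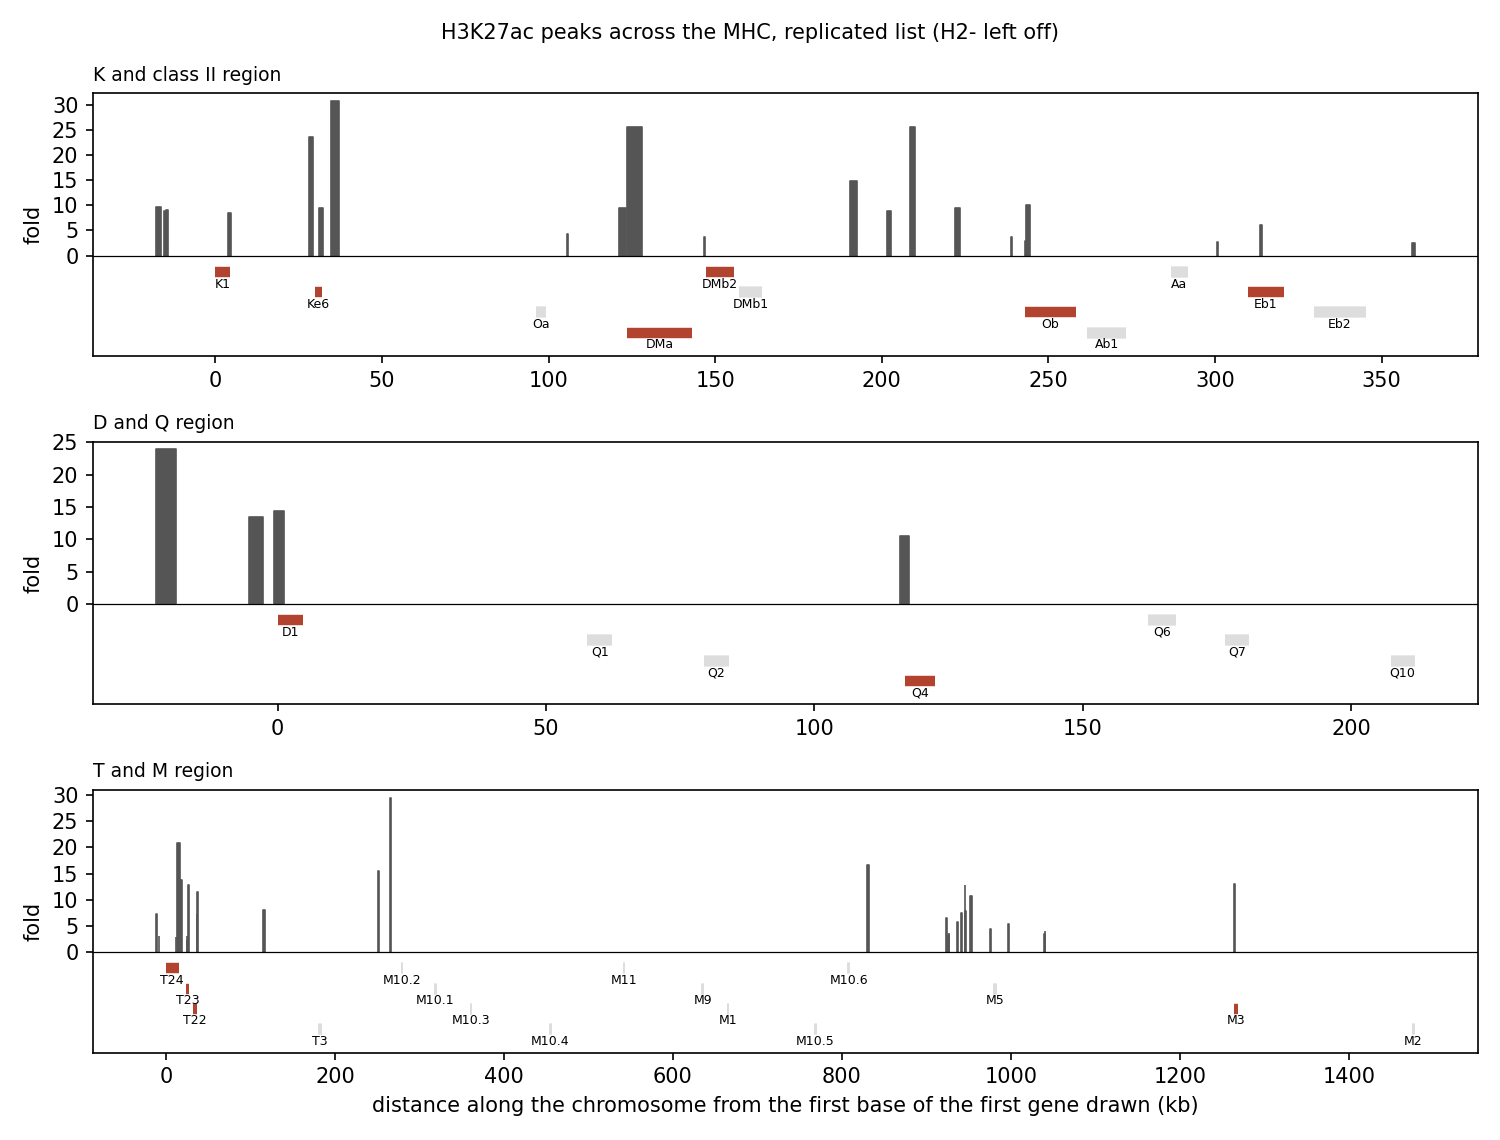
Peaks of the replicated list across the MHC, drawn as boxes with the deposited fold as height, and genes below in red where they have a promoter peak and in grey where they have none. The x axis is the distance in kb from the first gene drawn. Several of the strongest peaks stand at genes that are not drawn, and H2-M3 is the only M gene with one at its promoter.

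Other genes of the same pathways were read from lists chosen with earlier results of these data known. All 15 genes of class I processing and peptide loading had a promoter peak, beside 56.8% of all protein-coding genes. Among them were B2m, the class I light chain, with fold 20.6, the peptide transporter genes Tap1 and Tap2 with 14.8 and 25.6, the proteasome activator genes Psme1 and Psme2 with 17.9 and 21.7, and the loading chaperones Tapbp and Calr with 15.8 and 22.9. The peak of Tap1, of 1.93 kb, was also that of Psmb9 and is counted for both. Nlrc5, the activator of class I genes, had the weakest peak with 3.88 and was without one in the list of replicate 1. Of 10 genes of class II presentation and its regulators, 7 had one, beside the same 56.8%. Ciita, the master activator of class II, Cd74, the invariant chain, and the protease gene Ctss had none. Those with one were Rfxap, Rfxank, Nfyb, Rfx5 with 12.3, Creb1 with 20.2, and Nfya and Nfyc with 19.3 each.

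Of 16 receptors, kinases and inhibitors, 15 had a promoter peak, with 22.7 at Ifnar1, 28.2 at Ifnar2, 29.1 at Il10rb and 17.2 at Ifngr1, all receptor chains, and Ptpn6, a phosphatase of blood cells, had one in the list of replicate 2 only. Of 14 sensors and adaptors, 12 had one, among them the adaptors Ticam1 with 13.5, Mavs with 10.7 and Tmem173 with 11.2 and the RNA helicase Dhx58 with 5.24. The endosomal sensors Tlr7 and Tlr9 had none. Of 26 other antiviral genes, 24 had one, such as the ubiquitin ligase Trim25 with 11.7, Lgals3bp with 19.7, the tether Bst2 with 18.9 and Rsad2, which encodes viperin, with 6.36. Ifi44 had none, and Sp110 had one in the list of replicate 2 only. Parp9 and Dtx3l, both counted, had promoter peaks of the same fold (14.2) and width (2.09 kb). Of 7 immunity-related GTPases, which act against pathogens inside vacuoles, 6 had one, with 20.5 at Irgm1, 18.6 at Irgm2, 8.06 at Iigp1 and 7.77 at Tgtp2, and Irgc1 had none. None of the 10 genes for interferons themselves had one, Ifna1, Ifna2, Ifna4, Ifna5, Ifnb1 and Ifng included.

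The tissue was bulk heart, in which fewer cells of a type and less of the mark per cell cannot be told apart. The counts of markers below stand beside 56.8% of all protein-coding genes with a promoter peak. Defining markers of cardiomyocytes had promoter peaks at 7 of 7 genes, of endothelial cells at 7 of 7, of fibroblasts at 6 of 6 and of pericytes and smooth muscle at 5 of 6, or 6 of 6 in the list of replicate 2. Macrophage markers had them at 3 of 10, and at 2 and 4 in the lists of replicates 1 and 2. Spi1 was in both of these lists, C1qb only in that of replicate 1 and C1qc only in that of replicate 2, where Cd68 and Ptprc were added. Peaks were found at 1 of 7 dendritic cell markers (Zbtb46), 0 of 5 B lymphocyte markers and 1 of 7 T and NK lymphocyte markers (Lck, at an internal TSS). The part of these cells in the signal at class II genes, Irf5 and Irf8 was not tested.

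The promoters were also described by base composition. The CpG ratio is the number of CpG found in the 300 bases over the number their C and G content would give. Its median was 0.19 in the 91 genes, beside 0.52 in all coding genes. Among the genes with a promoter peak it was 0.30, beside 0.74 in all coding genes with one. At a ratio below 0.25 stood 50 of the 91 genes, and 22 of these had a peak at the 5′-most TSS (44.0%), beside 13.6% of all coding genes in that class. Of the 28 such genes outside MHC class I and II, 19 had one (67.9%), and only the rest of the 22 were MHC class I and II genes. The peaks that Gbp8, Gbp9 and Gbp4 share, and that of Ifit1 and Ifit1bl2, are counted for each gene. At a ratio of 0.75 and above, 11 of 11 genes had one, beside 87.5%.

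**Figure D5:**
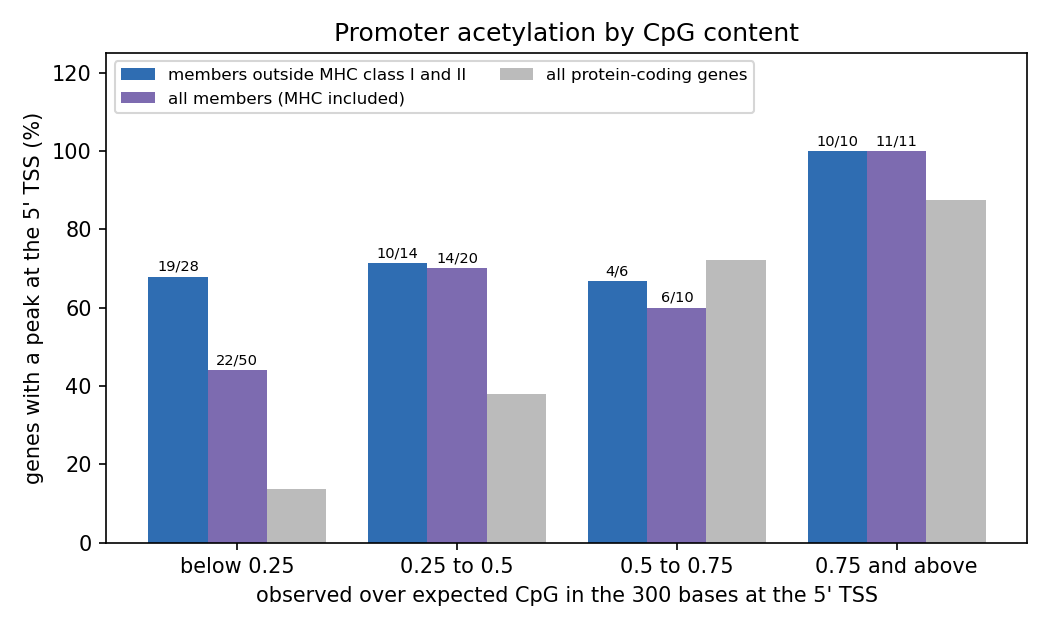
Share of genes with a peak at the 5′-most TSS, by the CpG ratio of the promoter, for the members outside MHC class I and II, all 91 members and all protein-coding genes. Numbers of genes stand above the bars of the members. In the class below 0.25, 67.9% and 44.0% of the members had a peak, beside 13.6% of all coding genes.

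ISRE cores were found on both sides of the acetylation call. Of the 21 genes with a core, 15 had a peak at the 5′-most TSS (71.4%), beside 48.8% of all coding genes with a core. Of the 70 genes without a core, 38 had one (54.3%), beside 53.4%. Outside MHC class I and II, 13 of the 18 genes with a core had a promoter peak, beside 43 of all 58. Within MHC class I and II, 2 of the 3 genes with a core had one, beside 11 of all 33. Ifit1 and Ifit1bl2, both counted among the 15, share 1 peak. The 6 genes with a core and no peak were H2-Q2, Ifit1bl1, Gbp2b, Oas3, Oas1a and Oas1g. A match describes letters and not a bound site. The GAS core was found at 13 genes (14.3%), beside 8.39% of all coding genes, and 10 of the 13 had a peak at the 5′-most TSS (76.9%), beside 45.1% of all coding genes with that core. A core of the composite element of PU.1 and IRF factors (GGAANNGAAA) was found at 4 genes (4.40%), beside 2.81%. The CCAAT box, part of many MHC promoters, was found at 48 (52.7%), beside 39.0%. It stood at 24 of the 33 MHC class I and II genes and at 24 of the other 58. Of the 48 genes with the box, 24 had a peak at the 5′-most TSS, beside 52.3% of all coding genes with it. Of the 43 genes without the box, 29 had one (67.4%), beside 53.9%.

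For each family, the gene with the widest promoter peak among those with an ISRE, GAS or PU.1-IRF core shows where the core lies. Irf1 and Gbp3 are printed whole above. The others are given as 60 bases of GRCm38 on the gene's strand, with cores in capitals: GAS cores in H2-D1, H2-M3, Irf2bp1, Ifit2 and Isg20, PU.1-IRF cores in H2-DMb2 and Stat5a, and ISRE cores in H2-T23, Ifitm2 and Oas1c.
H2-D1, chr17:35262657-35262716, plus strand: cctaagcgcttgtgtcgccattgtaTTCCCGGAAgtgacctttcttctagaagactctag
H2-M3, chr17:37270000-37270059, plus strand: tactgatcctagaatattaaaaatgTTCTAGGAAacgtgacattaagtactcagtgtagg
Irf2bp1, chr7:19003974-19004033, plus strand: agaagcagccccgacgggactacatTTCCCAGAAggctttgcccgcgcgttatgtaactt
Ifit2, chr19:34550444-34550503, plus strand: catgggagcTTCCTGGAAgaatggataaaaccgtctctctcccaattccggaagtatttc
Isg20, chr7:78913326-78913385, plus strand: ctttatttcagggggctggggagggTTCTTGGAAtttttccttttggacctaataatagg
H2-DMb2, chr17:34143155-34143214, plus strand: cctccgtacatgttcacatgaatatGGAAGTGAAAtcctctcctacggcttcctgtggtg
Stat5a, chr11:100859191-100859250, plus strand: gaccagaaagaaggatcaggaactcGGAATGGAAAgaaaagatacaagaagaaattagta
H2-T23, chr17:36032806-36032865, minus strand: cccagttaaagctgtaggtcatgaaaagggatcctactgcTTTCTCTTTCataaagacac
Ifitm2, chr7:140955973-140956032, minus strand: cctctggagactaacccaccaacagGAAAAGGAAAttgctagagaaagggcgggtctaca
Oas1c, chr5:120812594-120812653, minus strand: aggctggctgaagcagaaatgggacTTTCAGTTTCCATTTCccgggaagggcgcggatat

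The surroundings of the genes were measured by acetylated length. The median acetylated length was 5.36 kb over the 91 genes, beside 4.32 kb over all coding genes. In the list of replicate 1 it was 3.95 kb, beside 3.54 kb, and in that of replicate 2 it was 7.07 kb, beside 5.28 kb. It was 1.57 kb over MHC class I and II genes and 8.54 kb over the others. No peak lay within 50 kb of 16 of the 91 genes, beside 21.6% of all coding genes, and 11 of the 16 were class I genes. Windows of neighbours overlap, so these lengths are not independent of each other.

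The windows held 401 distinct peaks of the 63061 in the list. Of these, 86 were promoter peaks of the 91 genes, 95 were promoter peaks of other coding genes, and 157 were distal, over 2.5 kb from any TSS. The distal peaks had a median fold of 4.08, beside 3.89 for all 37273 distal peaks of the list. Counted by the nearest of the 91 genes, they were concentrated at few. Irf2bpl had 18, Irf1 had 17, Irf2bp2 had 16, Irf2 had 16, Stat5b had 14 and Stat3 had 13. Genes outside the 91 were not considered in this count and may lie nearer. The distal peak with the highest fold among those that hold an ISRE core lay 2.83 kb from H2-D1 (chr17:35257469-35259897), with fold 13.4 over 2.43 kb. An ISRE core stood within 250 bases of the summit of 13 of the 157 (8.28%), beside 7.72% of all distal peaks, and a PU.1-IRF core in 6 (3.82%), beside 6.07%.

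Similar copies and shared promoters bear on how these peaks are read. Of the 91 genes, 32 had under 90% unique promoter sequences of 32 bases (35.2%), beside 19.3% of all coding genes. Of these 32, 15 had a promoter peak (46.9%), beside 26.0% of all coding genes under that limit. Of the other 59, 39 had one (66.1%), beside 64.2%. At 10 genes every promoter peak also lay within 1 kb of a TSS of another coding gene, which for 6 of them was not among the 91. Among the 77 genes with no other coding TSS in reach, 42 had a promoter peak, beside 51.5% of such coding genes.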

How the data were processed

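H3K27ac was measured in 4 libraries of 1 group (2 biological replicates of 2 technical replicates each). The deposited lists, 4 in all, hold peaks on mm10, per the labels, with technical replicates joined, so no library has values of its own. The replicated list was used throughout, the 2 lists of single replicates for the spread, and the list from both pools as an alternative. The fold per peak is the authors' deposited ratio, taken to be enrichment over a control because of its column in the format. The −log10 p and −log10 q values are the authors' own, and q was used in 1 alternative. The display score the authors deposited was not used. Not given in the sources used here are the aligner, the peak caller and the handling of reads that match several places. No read numbers are given, so depth is unknown and intervals cover counting only. The effect of CAST/EiJ variants on read placement was not tested.

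Gene positions came from GENCODE M21 and sequence from GRCm38. Overlaps, CpG ratios, motif matches and the share of unique sequences of 32 bases were computed in Python 3.11.15 with numpy 2.4.6, pandas 2.3.3, scipy 1.17.1 and numba 0.67.0, and the steps were tested on simulated data. Peaks were called shared from an overlap of 1 bp. Members were compared with all coding genes by description only, without a test, since there is no second condition. Named per role were up to 6 genes with a promoter peak, by acetylated length, and up to 6 without one, and likewise up to 4 per pathway list. Other genes, among them those behind small counts, were named after their values were seen. The members and lists were chosen with earlier results of these data known. Alternatives changed the list, the fold or q limit, the promoter and gene windows, the TSSs used and the overlap. Values of some single members are not reported here, but they are counted in their families.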

Additional observations from a re-analysis of the deposited data

How the results depend on the processing

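The number of genes with a promoter peak lay between 49 and 54 under the other lists, limits, windows and TSS choices tried, and was 42 when restricted to the 77 genes with no other coding TSS in reach. Without either biological replicate it was 53 in both cases. The median acetylated length depended on the window, at 1.59 kb within 10 kb (1.52 kb for all coding genes) and 10.5 kb within 100 kb (8.26 kb), and it was 7.65 kb with 1 value per locus. Leaving out a replicate gave 3.95 to 7.07 kb. Genes with no peak in reach numbered 27 within 10 kb (32.5% of all coding genes) and 6 within 100 kb (16.4%), and 15 to 17 without either replicate. An ISRE core was found at 28 genes within 500 bases to either side of the TSS (11.0% of all coding genes) and at 27 when any TSS counted (2197 of 21938 coding genes). Only 53.2% of promoter peaks of replicate 1 were shared when the overlap had to cover 50% of each peak. Depth is unknown, so a missing peak is not a missing mark. No paired analysis was possible because there is 1 group and no test.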
